A study of Homo sapiens with 6 samples.

Results

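The genes of the ERBB receptor system and the RET receptor were followed across 6 RNA-seq libraries of Ishikawa cells. They are 10 of the 26364 genes in the deposited count table, picked out by gene name: the receptors EGFR, ERBB2, ERBB3 and ERBB4, the ligands TGFA, AREG, EREG, HBEGF and BTC, and RET. Ishikawa is an endometrioid adenocarcinoma line that responds to estrogen. The parental line and 2 clones with a knockout of ETV4, a transcription factor of the ETS family, were each treated with 10 nM E2 (17β-estradiol) or with 0.1% DMSO as the vehicle. All cells had first spent 5 days in medium without steroid hormones. The protocol gives the treatment as 8 h, while the sample characteristics give 1 h. Each of the 3 lines gave 1 library per treatment, so the knockout groups had n = 2 clones and the parental groups 1 library each. How ETV4 was disrupted is not given in the sources used here, and each clone is a single selected line.

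The ERBB receptors are membrane tyrosine kinases that pair with one another after a ligand binds. TGFA, AREG and BTC bind EGFR, and HBEGF and BTC bind EGFR and ERBB4. The neuregulins bind ERBB4, and of them NRG1 and NRG2 also bind ERBB3. ERBB2 has no known ligand of its own and ERBB3 has little kinase activity, so each signals mainly as a partner. The ligands are made as membrane precursors and are released by ADAM proteases. RET is the signalling receptor for the GDNF family of ligands, which it binds together with a GFRA coreceptor. In breast cancer cells, estrogen is known to raise TGFA, AREG and RET mRNA.

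The libraries held between 28037392 and 36829479 counts. ETV4 stood at 19.7 CPM (counts scaled to a common library size, with TMM factors) in parental DMSO and 28.4 CPM in parental E2. It stood at 3.40 and 2.95 CPM in clone 1 and at 2.43 and 2.77 CPM in clone 2 in the same order. The log2 difference between clones and parental line was -3.04 (SE 0.21, adjusted p 0.00868, edgeR), with the libraries of each line treated as independent. It no longer passed without the parental DMSO library (adjusted p 0.0986), the parental E2 library (0.115) or the clone 2 E2 library (0.0561) in edgeR. All 7 epithelial markers had a mean of at least 2 CPM. None of the 5 leukocyte markers did, with CD3E at 0 in every library. Of the 6 fibroblast markers COL1A1 and COL3A1 did, and of the 3 endothelial markers only VWF did. The summed fibroblast list ran from 46.6 to 85.8 CPM and did not separate the treatments. The summed epithelial list was 2923 to 3205 CPM in DMSO and 2296 to 2568 CPM in E2. Its genes did not move together: the log2 change with E2 was -0.68 for KRT8 and -0.67 for KRT18. It was -0.22 for EPCAM, -0.17 for KRT19, -0.03 for PAX8, 0.09 for CDH1 and 0.40 for MUC1. None of the 7 passed the E2 test in edgeR. The part of these markers in the results was not tested. The TMM factor was 0.899 in parental DMSO and 1.01 to 1.04 in the other libraries.

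To compare levels between genes, CPM was divided by the length in kilobases (kb) of the longest GENCODE 29 transcript. On that scale TGFA had the highest mean of the 10 genes, at 91.0 CPM per kb (35.6 to 161 over the 6 libraries). ERBB2 followed at 34.8 (26.9 to 43.5) and ERBB3 at 19.8 (15.7 to 28.1) CPM per kb. The ranges of these neighbours overlapped, although ERBB2 was above ERBB3 in 6 of 6 libraries and TGFA above ERBB2 in 5. EGFR at 2.92, BTC at 1.35 and HBEGF at 0.439 CPM per kb each lay in a range of their own. RET at 0.0872, ERBB4 at 0.0361, AREG at 0.0294 and EREG at 0.00348 CPM per kb had overlapping ranges at the low end. The cells therefore held abundant TGFA, ERBB2 and ERBB3 mRNA, a moderate level of EGFR, and few reads of RET, ERBB4, AREG and EREG.

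**Figure D1:**
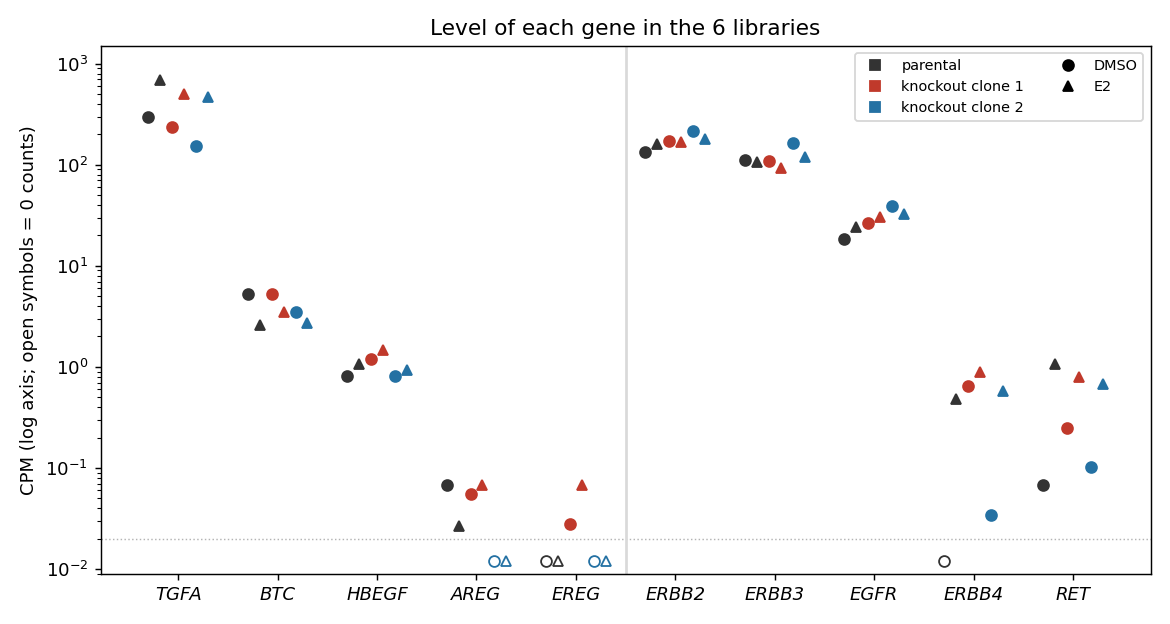
Level of the 10 genes in each library, in CPM on a log axis; colours give the line, circles DMSO and triangles E2, and open symbols under the dotted line are libraries with 0 counts. TGFA lies higher in E2 (472 to 695 CPM) than in DMSO (154 to 294 CPM) in every line, and RET does the same at a much lower level.

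TGFA, a ligand of EGFR, rose with E2. The stretch of 250 bases before the first of its 2 RefSeq start sites is shown because TGFA had the clearest response of the 10 genes, at chr2:70553827-70554076 (GRCh38.p14, minus strand, written 5′ to 3′). Capitals mark the matches to any of the motifs searched.
TGFA: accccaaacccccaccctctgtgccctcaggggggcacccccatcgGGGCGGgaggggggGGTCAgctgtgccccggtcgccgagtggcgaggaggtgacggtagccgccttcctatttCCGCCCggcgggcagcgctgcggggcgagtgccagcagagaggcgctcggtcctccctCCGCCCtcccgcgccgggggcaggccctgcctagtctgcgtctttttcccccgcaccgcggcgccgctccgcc
Sequences of 5 motifs were searched on both strands in 250 bases before each RefSeq start: the palindromic estrogen response element (GGTCA, 3 bases of any kind, TGACC), its single arm GGTCA, the ETS site CCGGAAG, the GC box GGGCGG and the AP-1 site TGANTCA. Every match to the element also holds 2 matches to its arm. The TGFA stretch held 1 arm and 3 GC boxes, and none of the other motifs. Among 35116 promoter stretches of this length, 32.6% held the arm, 42.6% a GC box, 8.52% the ETS site, 6.57% the AP-1 site and 0.0399% the full element.

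TGFA stood at 294 CPM in parental DMSO and 695 CPM in parental E2. In clone 1 it went from 235 to 503 CPM, and in clone 2 from 154 to 472 CPM. The lowest E2 library was above the highest DMSO library, so the treatments did not overlap. Of the 8 members that could be tested, TGFA and RET had such non-overlapping, higher levels in E2, and 13.5% of the 15611 genes tested did. The parental ratio of E2 to DMSO was 2.36, with a 95% exact counting interval of 2.30 to 2.42. Clone 1 had a ratio of 2.14 (2.08 to 2.20), and clone 2 had the highest, 3.07 (2.97 to 3.18). These intervals cover counting error only.

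The model of the 3 lines had terms for genotype and treatment but not for line. In it TGFA rose by 1.30 on the log2 scale (SE 0.18, adjusted p 0.0297, edgeR). With line as a replicate block, which pairs the libraries of a line, the rise was 1.32 (SE 0.15, adjusted p 0.0167, edgeR). Every adjusted p from edgeR here is that of the quasi-likelihood test, adjusted by Benjamini and Hochberg's method over the whole table. Without the block TGFA was the only member of the 8 tested to pass, against 0.903% of all genes that passed in this direction. A larger share of cells making TGFA and more TGFA mRNA per cell cannot be told apart in bulk libraries. The call was lost in 5 of the fits that left libraries out, with a similar change. It was 1.32 without the parental line (adjusted p 0.134), 1.31 without its DMSO library (0.134), 1.33 without its E2 library (0.125), 1.47 without the clone 1 DMSO library (0.0643) and 1.32 without the clone 2 E2 library (0.158), all in edgeR. Across genes, the E2 change in the parental line moved with GC content of the transcript (Spearman's rho 0.334, against 0.135 in clone 1 and -0.00931 in clone 2). With that trend and the length trend removed, the TGFA change was 1.29 (adjusted p 0.0159, edgeR).

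None of the other ERBB ligands that could be tested passed the E2 test in edgeR. BTC, betacellulin, stood at 5.21 CPM in parental DMSO and 2.59 CPM in E2, at 5.25 and 3.53 CPM in clone 1, and at 3.52 and 2.70 CPM in clone 2. It was lower in E2 within each line, but the clone 1 E2 library lay just above the clone 2 DMSO library, so the treatments overlapped. Its log2 change was -0.67 (SE 0.26, adjusted p 0.223, edgeR). It was -0.79 when clone 2 was left out, a fit with 1 library per group. BTC passed in no fit that kept libraries of both clones. HBEGF, the heparin-binding ligand, had 24 to 43 counts per library. It went from 0.807 to 1.07 CPM in the parental line, from 1.20 to 1.47 CPM in clone 1 and from 0.820 to 0.923 CPM in clone 2. HBEGF was thus higher in E2 in each line, but the ranges overlapped and the log2 change was 0.29 (SE 0.33, adjusted p 0.618, edgeR). EGF, a listed ligand that is no member, was also higher in E2 in each line: 1.24 and 1.68 CPM in parental cells, 1.45 and 1.95 CPM in clone 1, and 2.05 and 2.39 CPM in clone 2. Its log2 change was 0.35 (SE 0.26, adjusted p 0.452, edgeR). The changes of these ligands were not tested against that of TGFA.

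AREG and EREG, amphiregulin and epiregulin, were close to undetected and were not tested. AREG had 2 counts in parental DMSO and 1 in parental E2, 2 in each library of clone 1 and 0 in both libraries of clone 2. EREG had 1 count in DMSO and 2 in E2 in clone 1, and 0 in the other 4 libraries. A count of 0 allows a level of up to 3 counts, or 0.0802 to 0.103 CPM depending on the library. AREG has a near-identical copy, AREGB, in older human builds such as the hg19 named by the submitters, and reads of such copies can be split or dropped in counting, so its level is uncertain.

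Over 11 ERBB ligands (the 5 members with EGF, EPGN and NRG1 to NRG4), TGFA made up 78.8% to 95.1% of the summed CPM per kb in each library. Its share was 86.0% in parental DMSO and 95.1% in parental E2, 86.5% and 94.0% in clone 1, and 78.8% and 92.9% in clone 2. The next ligand in every library was NRG4, a neuregulin. TGFA was 5.23 to 10.7 times as high as NRG4 in DMSO and 18.5 to 28.5 times as high in E2, per kb.

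**Figure D2:**
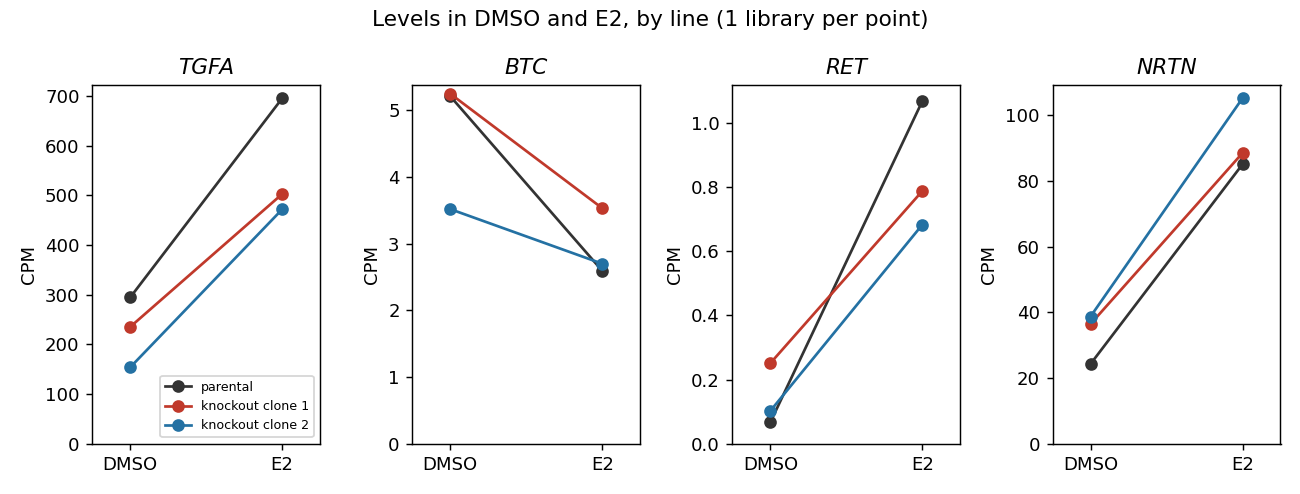
CPM in DMSO and E2 for TGFA, BTC, RET and the RET-system ligand NRTN, with 1 library per point and a line joining the libraries of each cell line; the axes start at 0 and differ between panels. TGFA, RET and NRTN go up in all 3 lines, and BTC goes down in all 3.

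RET was also higher in E2 in each line, from a level close to the detection limit, but did not pass the test in edgeR. The 250 bases before its upstream RefSeq start, chr10:43076819-43077068 (GRCh38.p14, plus strand), are shown for comparison with TGFA, with the same motifs in capitals.
RET: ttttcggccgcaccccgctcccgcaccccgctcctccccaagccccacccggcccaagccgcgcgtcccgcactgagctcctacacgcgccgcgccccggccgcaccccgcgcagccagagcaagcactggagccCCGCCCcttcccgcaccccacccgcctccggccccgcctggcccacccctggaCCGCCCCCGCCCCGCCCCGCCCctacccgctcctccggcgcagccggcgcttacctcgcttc
This stretch held 5 GC boxes, of which 4 run into one another, and none of the other 4 motifs searched. GC boxes were not particular to TGFA and RET: the first stretch of EGFR held 2, those of ERBB4 and AREG 1 each and that of HBEGF 5, while the second TGFA stretch held 0. None of the 12 stretches of the members held the full estrogen response element, as against 0.0399% of the 35116 stretches searched. At that share a match among 12 would be rare, and sites outside the 250 bases were not searched.

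RET had 2 counts in parental DMSO and 40 in parental E2, 9 and 23 in clone 1, and 3 and 20 in clone 2. In CPM these were 0.0672 and 1.07, 0.251 and 0.788, and 0.102 and 0.683. The 3 E2 libraries all lay above the 3 DMSO libraries. The ratio of E2 to DMSO was 15.9 in the parental line with a 95% range from counting alone of 4.12 to 136, and it rests on 2 counts in DMSO. For clone 1 it was 3.14 (1.40 to 7.71) and for clone 2 it was 6.67 (1.98 to 35.1), so the 3 intervals overlapped.

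RET did not pass the threshold in the 3 lines (log2 change 2.52, SE 0.55, adjusted p 0.0985, edgeR). With line as a replicate block RET did not pass either (2.54, SE 0.50, adjusted p 0.0617, edgeR). It passed in DESeq2's Wald test (2.58, adjusted p 0.0180), and in edgeR without clone 1 (3.27, adjusted p 9.88e-04), without clone 2 (2.49, adjusted p 7.74e-04) and with the GC and length correction combined with the replicate block (2.38, adjusted p 0.0357). The fits without a clone left 1 residual degree of freedom and called 745 and 3353 genes in all. DESeq2's test called 1115 genes in all and the correction with the block 1538, against 176 in the main fit. Without the parental line the RET change was 1.99 (adjusted p 0.383, edgeR).

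The other parts of the RET system were read from a list of 16 further ligands and coreceptors of ERBB and RET. NRTN, neurturin, a GDNF-family ligand that acts through GFRA2 and RET, alone passed of the 8 tested with E2, against 1.13% of all genes. It went from 24.3 to 85.1 CPM in the parental line, from 36.4 to 88.5 CPM in clone 1 and from 38.7 to 105 CPM in clone 2. Every E2 library lay above every DMSO library, as for 13.5% of all genes tested. Its log2 change was 1.51 (SE 0.15, adjusted p 0.00759, edgeR), and without the clone 2 E2 library it was 1.49 (adjusted p 0.0719, edgeR). NRTN had a mean of 56.8 CPM per kb, against 0.0872 for RET. Of the coreceptors, GFRA3 had a mean of 8.71 CPM, while GFRA2 had 0.107 CPM and GFRA1 had 1 count in all libraries together. ARTN, artemin, the ligand of GFRA3, had a mean of 4.32 CPM and a log2 change of 0.22 (SE 0.18, adjusted p 0.507, edgeR). GDNF had 3 counts in all.

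None of the 4 ERBB receptors passed the E2 test in edgeR, which called 1.13% of all genes in either direction. At an unadjusted p under 0.05 none of the 4 did either, against 20.4% of all genes, and none passed in DESeq2's Wald test. EGFR went from 18.5 to 24.5 CPM in the parental line and from 26.3 to 30.3 CPM in clone 1, but from 39.2 to 32.9 CPM in clone 2. Its log2 change was 0.10 (SE 0.19, adjusted p 0.771, edgeR), and -0.054 with the GC and length correction. ERBB2, the receptor targeted in HER2-positive cancers, went from 133 to 162 CPM in the parental line, from 171 to 168 CPM in clone 1 and from 215 to 179 CPM in clone 2. Its log2 change of -0.01 (SE 0.16, adjusted p 0.985, edgeR) joined an E2 to DMSO ratio of 1.22 in parental cells (exact counting interval 1.17 to 1.27) with ratios of 0.982 in clone 1 (0.946 to 1.02) and 0.836 in clone 2 (0.806 to 0.868). The interval of clone 1 includes 1. With the GC and length correction the log2 change of ERBB2 was -0.156 (SE 0.089, adjusted p 0.321, edgeR). Opposite signs in the parental line and both clones were seen for this 1 member of the 8 tested and for 13.1% of all genes. Of the 8, 4 (ERBB4, TGFA, HBEGF and RET) were higher in E2 in each line, against 27.8% of all genes, and ERBB3 and BTC were lower in each, against 25.1%.

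ERBB3 was lower in E2 within each line. It went from 111 to 106 CPM in the parental line, from 110 to 93.0 CPM in clone 1 and from 166 to 118 CPM in clone 2. The treatments overlapped, and the log2 change was -0.28 (SE 0.19, adjusted p 0.427, edgeR). It passed with the GC and length correction combined with the replicate block (-0.40, adjusted p 0.0339, edgeR). That setting called 1538 genes in all, against 176 in the main fit. ERBB4 was detected at a low level: 0 counts in parental DMSO and 18 in parental E2, 23 and 26 in clone 1, and 1 and 17 in clone 2. Set against a floor of 3 counts in its DMSO library, parental ERBB4 was at least 4.77-fold higher in E2. With the counting error of the 18 counts included, the exact lower limit of that ratio was 3.50. Clone 1 had a ratio of 1.39 (exact counting interval 0.762 to 2.55) and clone 2 one of 17.0 (2.67 to 711). The DMSO libraries ran from 0 to 0.642 CPM and the E2 libraries from 0.481 to 0.891 CPM, so they overlapped through clone 1. The log2 change over the 3 lines was 1.67 (SE 0.98, adjusted p 0.360, edgeR). It was 4.67 without clone 1, in a fit with 1 library per group. These fitted values depend on the prior count.

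**Figure D3:**
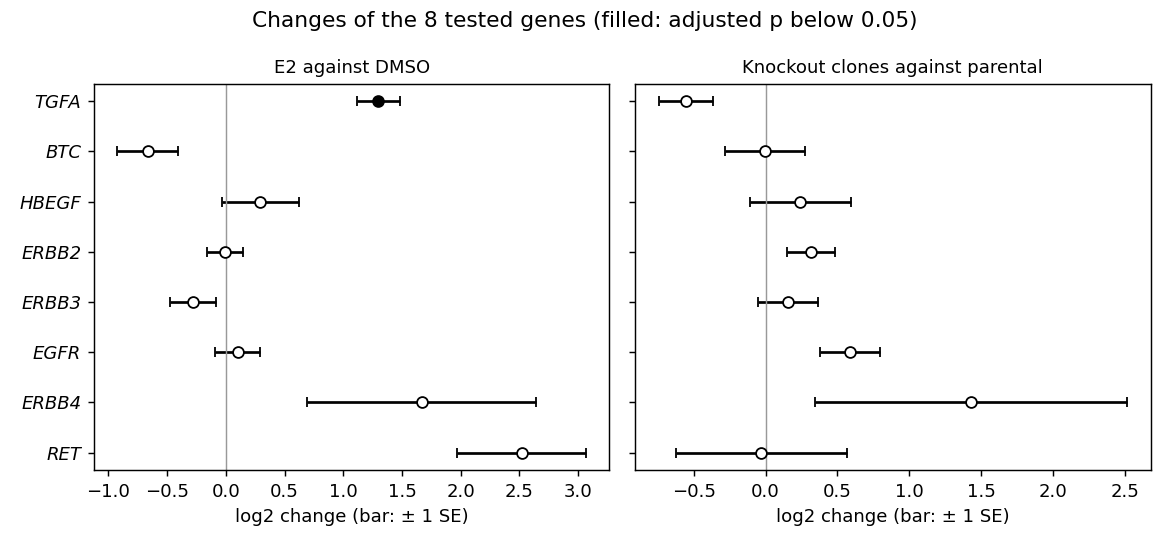
Log2 change of the 8 tested members with E2 (left) and in the knockout clones (right), with bars of 1 SE; filled points passed an adjusted p of 0.05 in edgeR. Only TGFA with E2, at 1.30, is filled, and ERBB4 and RET have the widest bars.

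The next comparison set the ETV4 knockout clones against parental cells, with treatment in the model. That fit treated the DMSO and E2 libraries of each line as independent, and the parental side is a single line. None of the 8 tested members passed (0.327% of all genes did in either direction, edgeR). DESeq2's Wald test also called none. EGFR and TGFA had an unadjusted p under 0.05 in edgeR, as did 11.4% of all genes. In this comparison the genotype and other differences between lines cannot be told apart. Among the markers of other cells with a mean of at least 2 CPM, COL3A1 stood at 1.34 to 3.35 CPM in the clones and at 7.93 and 9.73 CPM in parental cells (log2 difference -2.09, adjusted p 0.117, edgeR). COL1A1, the more abundant fibroblast marker, overlapped at 44.8 to 70.7 CPM against 49.3 and 75.2 CPM (-0.20, adjusted p 0.720, edgeR). The endothelial marker VWF was at 2.56 to 3.96 CPM against 1.61 and 2.33 CPM (0.70, adjusted p 0.440, edgeR). Their part in these results was not tested.

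TGFA was lower in the clones under each treatment. In DMSO clone 1 stood at 79.8% and clone 2 at 52.2% of the parental level, and in E2 at 72.3% and 67.8%. The DMSO mean of the clones was 194 ± 57.6 CPM and their E2 mean 487 ± 21.9 CPM (SD, n = 2). The log2 difference was -0.56 (SE 0.19, adjusted p 0.355, edgeR). EGFR had a DMSO mean of 32.7 ± 9.15 CPM in the clones and an E2 mean of 31.6 ± 1.84 CPM (SD, n = 2). All 4 clone libraries, from 26.3 to 39.2 CPM, lay above both parental libraries, at 18.5 and 24.5 CPM. The log2 difference was 0.59 (SE 0.21, adjusted p 0.369, edgeR).

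The ERBB2 promoter stretch is shown because it holds the ETS motif bound by factors of the family of ETV4. It lies at chr17:39687844-39688093 (GRCh38.p14, plus strand), with the same motifs in capitals.
ERBB2: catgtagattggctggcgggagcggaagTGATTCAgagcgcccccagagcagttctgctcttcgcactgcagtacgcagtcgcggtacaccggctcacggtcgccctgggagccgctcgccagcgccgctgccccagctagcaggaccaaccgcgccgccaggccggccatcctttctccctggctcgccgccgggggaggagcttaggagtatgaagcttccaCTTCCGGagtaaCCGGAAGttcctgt
The 2 matches to CCGGAAG, on opposite strands, lie close to the start site, the nearest ending 7 bases before it. A match to the searched AP-1 letters TGANTCA, here TGATTCA, ends 215 bases before the start site. ERBB2 was the only member of the 9 with a promoter entry to hold CCGGAAG in this window, over 12 stretches in all. Of the 35116 promoter stretches searched 8.52% held it, a share near that of the members, so the match does not set ERBB2 apart. ERBB3 had no entry. The match is a description of the letters and not of binding.

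The clones had a DMSO mean of 193 ± 30.6 CPM for ERBB2 and an E2 mean of 174 ± 7.97 CPM (SD, n = 2). The 4 clone libraries, from 168 to 215 CPM, lay above both parental libraries, at 133 and 162 CPM. Such higher, non-overlapping levels held for 2 of the 8 tested members, EGFR and ERBB2, and for 8.53% of all genes. The log2 difference of ERBB2 was 0.32 (SE 0.17, adjusted p 0.493, edgeR). For ERBB3 it was 0.16 (SE 0.21), for HBEGF 0.24 (SE 0.35), for BTC -0.00 (SE 0.28) and for RET -0.03 (SE 0.59). For ERBB4 it was 1.43 (SE 1.08), and 1.84 without clone 2, in a fit with 1 library per group. This ERBB4 difference passed in no fit that kept libraries of both clones. It moved to 0.41 without clone 1, 0.60 without the parental DMSO library and 6.44 without the parental E2 library, where the parental line is left with 0 counts.

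The clones also differed from each other. As a log2 ratio of clone 1 to clone 2, TGFA was 0.61 in DMSO and 0.09 in E2, EGFR -0.58 and -0.12, and RET 0.85 and 0.19. ERBB4 was 2.77 in DMSO and 0.56 in E2, and ERBB3 was -0.60 and -0.34. HBEGF went the other way, with 0.50 in DMSO and 0.64 in E2. The ratio was closer to 0 in E2 for 7 of the 8 tested members and for 63.6% of all genes tested. With 1 library per clone and treatment, this has no replicate check.

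The clones were then tested alone, to ask whether the responses remained when ETV4 was knocked out. Without the replicate block none of the 8 tested members passed in edgeR, and 0.329% of all genes did. TGFA and RET had unadjusted p-values of 0.00109 and 0.0124 in edgeR, as 8.7% of all genes had one under 0.05. TGFA passed in DESeq2's Wald test (log2 change 1.33, adjusted p 8.70e-07). The libraries of a clone are paired by the line they come from. With clone as a replicate block TGFA changed by 1.35 (SE 0.16, adjusted p 1.03e-15, edgeR) and RET by 2.01 (SE 0.52, adjusted p 0.00158, edgeR). That fit left 1 residual degree of freedom and called 15% of all genes, so its p-values borrow their spread from the whole table. NRTN passed in both fits, at 1.36 (adjusted p 0.0342) and 1.35 (adjusted p 4.08e-22) in edgeR.

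Whether the size of the E2 change differed between clones and parental line was tested by the interaction. None of the 8 tested members passed with or without the replicate block, in edgeR or in DESeq2's Wald test. Without the block 0% of all genes passed and 7.62% had an unadjusted p under 0.05, and with it 15.8% passed. For TGFA the difference in log2 change was 0.09 (SE 0.39, adjusted p 0.960, edgeR), and for RET -1.91 (SE 1.15, adjusted p 0.630, edgeR). ERBB4 came closest with the block (adjusted p 0.0526, edgeR), where its fitted value rests on the 0 counts in parental DMSO.

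**Figure D4:**
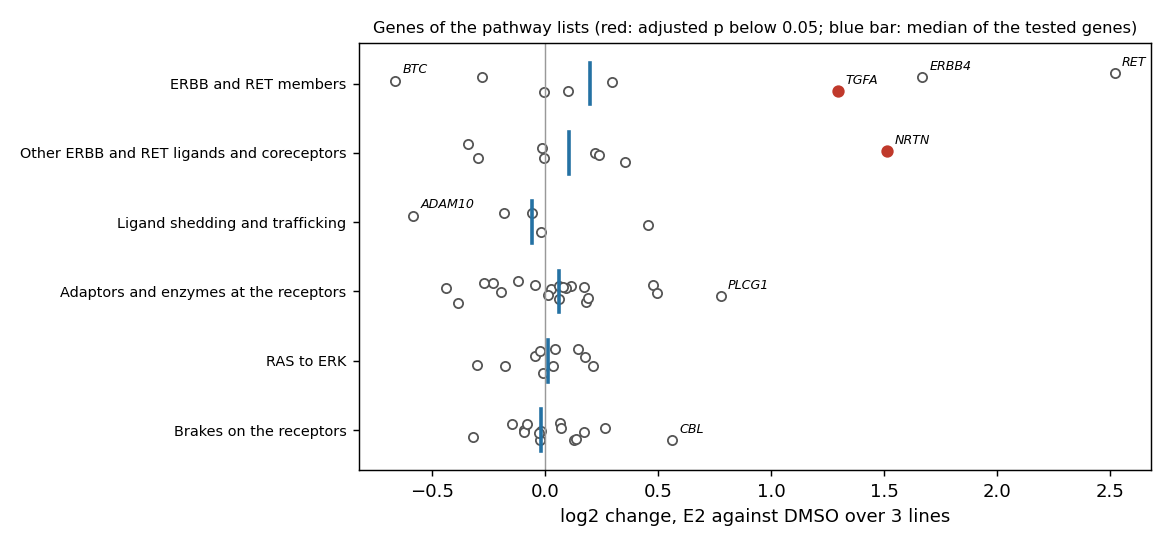
Log2 change with E2 over the 3 lines for each tested gene of the members and of the 5 pathway lists; red points passed an adjusted p of 0.05 in edgeR and blue bars are medians of the tested genes. TGFA at 1.30 and NRTN at 1.51 are red, and the genes of the RAS to ERK list lie between -0.30 and 0.21.

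The remaining 68 genes of the pathway, in 5 lists, were read in the same fits. With E2, 1 of the 58 that could be tested rose (NRTN) and 0 fell, where 1.13% of all genes were called in either direction (edgeR). The median log2 change was 0.02, against -0.02 over all genes. The proteases and trafficking factors that release the ligands had 0 of 5 called. ADAM10, a sheddase of BTC and EGF, stood at 346 and 264 CPM in the parental line, at 307 and 203 CPM in clone 1 and at 340 and 200 CPM in clone 2. In each line E2 gave the lower value, as for 25.1% of all genes (log2 change -0.59, SE 0.13, adjusted p 0.103, edgeR). ADAM10 was named after its values were seen. ADAM17, the main sheddase of TGFA, had a log2 change of -0.18 (SE 0.11, adjusted p 0.387, edgeR), and was named for its substrate.

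The adaptors and enzymes that bind the receptors had 0 of 20 called with E2, against 1.13% of all genes, and a median log2 change of 0.06. The RAS to ERK list had 0 of 10 called, with changes from -0.30 to 0.21. The brakes on the receptors, among them the ubiquitin ligase CBL and the inhibitors ERRFI1 and LRIG1, had 0 of 15 called. In the knockout comparison 0 of the 58 genes passed in edgeR, where 0.327% of all genes did. In the clones alone with the replicate block 4 rose (NRTN, PLCG1, STAT5B and CBL) and 3 fell (ADAM10, GAB1 and PIK3R3), where 15% of all genes were called. In the interaction with the block 2 of the 58 passed, where 15.8% of all genes did: PLCG1 (-0.87, adjusted p 0.00398) and CBL (-0.62, adjusted p 0.0454) in edgeR. Without the block their adjusted p-values in edgeR were 0.617 and 0.622. PLCG1, a phospholipase recruited by the receptors, went from 37.2 to 96.6 CPM in the parental line, from 60.2 to 98.7 CPM in clone 1 and from 92.5 to 115 CPM in clone 2. Both were named after their values were seen.

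The genes most like RET and TGFA were sought by Pearson's correlation of log2 CPM over the 6 libraries, among 12367 genes whose mean reached 2 CPM. Those closest to RET were CYP27B1 (r = 0.994), DUSP2 (r = 0.994) and URB2 (r = 0.992). Those closest to TGFA were UTP15 (r = 1.000), GNL3 (r = 0.994) and FUBP1 (r = 0.992). With 6 libraries and this many genes such values are a description only. None of the 6 passed the E2 test in edgeR, with adjusted p-values from 0.0902 for URB2 to 0.495 for FUBP1. UTP15 went from 36.2 to 47.6 CPM in the parental line, a smaller change than that of TGFA, with the libraries in the same order.

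The kit that made the libraries keeps strand, but whether counting used it is not given in the sources used here. The transcripts EGFR-AS1 and TGFA-IT1, annotated within or beside EGFR and TGFA, had at most 3 and 2 counts in a library.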

How the data were processed

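The deposited table holds raw read counts per gene for 6 libraries made with a stranded poly(A) kit, per the labels' protocols. HISAT2, SAMtools, Subread, DESeq2 and hg19 are named in the submitters' processing notes, without versions. The authors' normalized table was not used.

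Counts were fitted as deposited with edgeR 4.0.16 (R 4.3.3): TMM scaling, the default filter on low counts, the quasi-likelihood test and Benjamini-Hochberg adjustment over 15611 genes (14881 in the clones alone), with a threshold of 0.05. The E2 and knockout effects were fitted over all 6 libraries, followed by their interaction and the clones alone. With 1 library per line and treatment, the spread comes from the 2 clones and from treatment changes that differ between lines. P-values measure only that spread. The main fits had no term for line, so the DMSO and E2 libraries of a line were treated as independent. The parental group is 1 line, so the spread between parental lines is not known, and knockout p-values do not cover it. Depth was 28037392 to 36829479 counts, and 95% exact intervals for ratios cover counting error only. Libraries of a line are paired by that line: the clone 1 minus clone 2 differences in DMSO and E2 correlated across genes at 0.628. The replicate block was the line, as a fixed term for E2 and through limma 3.58.1 with a within-line correlation of 0.113 for the knockout effect.

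Alternatives were DESeq2 1.42.0, limma-voom, other scalings, filters and prior counts, a correction for transcript GC content and length (14607 genes, 93.6% of those tested), the block, and leaving out libraries and lines. The scripts were tested on simulated data. Promoters came from RefSeq (GRCh38.p14), with an entry for 9 of the 10 members.

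Members and lists were chosen with earlier results of these data known. The rule for naming took all 10 members, ETV4, list genes with an adjusted p below 0.05 and a mean CPM of 2 or more, and the 3 genes most correlated with RET and with each member called. Other list genes (EGF, NRG4, ARTN, GDNF, the GFRA coreceptors, ADAM10, ADAM17, ERRFI1 and LRIG1) and single markers were named outside this rule, for their role or after their values were seen.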

Additional observations from a re-analysis of the deposited data

Results flagged for a closer look

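The E2 change of ERBB2 had opposite signs in the parental line and the clones. On the log2 scale the parental change was 0.29, that of clone 1 was -0.026 and that of clone 2 was -0.26. The ratio behind the clone 1 value was 0.982, with an exact counting interval of 0.946 to 1.02, so its sign is within counting error. Both clones were opposite in sign to the parental line for this member and for 13.1% of all genes tested. The difference was tested as an interaction and did not pass (-0.44, SE 0.29, adjusted p 0.653, edgeR). Across genes, the E2 change moved with GC content in the parental line (Spearman's rho 0.334) more than in clone 1 (0.135) or clone 2 (-0.00931). The ERBB2 transcript has 57.5% GC, the highest of the members. With the GC and length correction its E2 change over the 3 lines was -0.156 (SE 0.089, adjusted p 0.321, edgeR). The part of GC content in the opposite signs was not tested.

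Relative to parental cells, RET was higher in both clones in DMSO and lower in both in E2. As a log2 ratio to the parental line, clone 1 stood at 1.19 and clone 2 at 0.34 in DMSO, and at -0.39 and -0.58 in E2. The DMSO values rest on 2, 9 and 3 counts in the parental line, clone 1 and clone 2. How many of all genes show such a pattern was not counted. The interaction did not pass (-1.91, SE 1.15, adjusted p 0.630, edgeR).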

How the results depend on the processing

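These results rest on 1 library per line and treatment. Counts of called genes moved with many settings, and the cause was not tested. For the E2 effect (176 genes, 1 member and 1 list gene called in edgeR), DESeq2 called 1115 genes, 2 members and 3 list genes. The GC and length correction called 382 genes and 2 list genes, the replicate block 384 genes, and the correction with the replicate block 1538 genes, 3 members and 7 list genes. Leaving out libraries or lines gave 40 to 3353 genes, 0 to 3 members and 0 to 5 list genes. For the knockout effect (51 genes), DESeq2 called 454 genes and 1 list gene, the correction 118 genes, and leaving out libraries or lines 1 to 996 genes, 0 to 1 members and 0 to 3 list genes. For the interaction (0 genes), DESeq2 called 29 genes, the replicate block 2470 genes and 2 list genes, the correction with the block 1474 genes and 3 list genes, and leaving out libraries 0 to 38 genes. In the clones alone (49 genes), DESeq2 called 310 genes, 1 member and 2 list genes, the replicate block 2227 genes, 2 members and 7 list genes, and the correction with the block 3103 genes, 3 members and 10 list genes. Leaving out libraries there gave 0 to 352 genes, 0 to 1 members and 0 to 1 list genes.

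The TGFA change with E2 kept its direction in all 17 alternatives and its call in 12, and ran from 1.13 to 1.47 when libraries or lines were left out. That of RET kept its direction in all 16 it could be fitted in and passed in 4. It was 2.58 in DESeq2, 2.38 with the correction and the replicate block, and 1.98 to 3.29 with libraries or lines left out. The knockout effect of ERBB4 ran from 0.409 without clone 1 to 6.44 without the parental E2 library. With the filter of 10 counts in every library, RET and ERBB4 were not tested.

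Changes that turned sign were near 0, or rested on few counts or libraries. With E2, EGFR was -0.0543 with the correction, -0.0479 with correction and block, and -0.0655 to 0.325 with libraries or lines left out. ERBB2 was 0.00113 with the stricter filter, 4.48e-04 in limma-voom, 3.45e-04 with the replicate block, and -0.167 to 0.133 with libraries or lines left out. ETV4 was -0.0494 to 0.368. In the knockout effect BTC was 0.00977 with the stricter filter, 0.0915 with the correction and -0.278 to 0.256 with libraries or lines left out. RET was 0.0906 in DESeq2 and -0.545 to 1.37, ERBB3 -0.0969 to 0.359 and HBEGF -0.115 to 0.513. In the interaction ERBB3 was 0.00520 with correction and block and -0.612 to 0.00704, TGFA -0.189 to 0.402 and HBEGF -0.541 to 0.132 with libraries left out. In the clones alone EGFR was -0.326 to 0.267, ERBB2 -0.320 to 0.0202, HBEGF -0.152 to 0.534 and ETV4 -0.254 to 0.220.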
